A study of Mus musculus with 2 samples.

Results

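Base excision repair is described here through 10 mouse genes: the uracil and thymine DNA glycosylases Ung, Smug1, Tdg and Mbd4, the abasic-site endonucleases Apex1 and Apex2, the gap-filling polymerase Polb, the scaffold Xrcc1, the strand-break sensor Parp1 and the ligase Lig3. Their probes were taken by name, as every probe that the scanner output assigns to one of these symbols, and the rule uses no measured value. The 10 genes were among 27671 gene names on the array, of which 17590 were measured, that is, stood clearly above background in each of the RNAs on each array. Of their 19 probes, 17 were measured, and each of the 10 genes had at least 1 of them.

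The RNA came from B cells of C57BL/6 mouse spleens, enriched by removing cells that carry CD43. One RNA was from cells transduced with a retroviral vector for miR-181b and green fluorescent protein (GFP), and the other from cells given a control vector with GFP alone. Both cultures received 25 µg/ml lipopolysaccharide and 10 ng/ml interleukin-4, were exposed to virus for 20 h with 8 µg/ml polybrene, and were sorted for GFP on day 2. There was 1 RNA per vector, so nothing below carries a p-value, and the 2 arrays are dye-exchanged repeats of the same RNA pair: miR-181b RNA was in Cy5 on array 1 and in Cy3 on array 2.

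In base excision repair a glycosylase first cuts a damaged or mispaired base from its sugar, an endonuclease then opens the backbone at the abasic site, and a polymerase and a ligase fill and seal the gap. Uracil in DNA arises when cytosine is deaminated, by chance or by an enzyme, and when dUTP is used in place of dTTP during replication. B cells stimulated with lipopolysaccharide and interleukin-4 divide and begin immunoglobulin class switching, in which uracil in the switch regions is removed by Ung, the main nuclear and mitochondrial uracil glycosylase, on the way to the DNA breaks that are joined.

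MicroRNAs of the miR-181 family share a seed, the bases that pair with target messages, shown in capitals (bases 2 to 8). The mature sequences are given to show what the vector carries beside its family, and come from RefSeq (GRCm38.p6).
miR-181b-5p: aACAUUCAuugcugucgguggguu
miR-181a-5p: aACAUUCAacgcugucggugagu
miR-181c-5p: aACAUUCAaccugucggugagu
miR-181d-5p: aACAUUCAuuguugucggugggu
The mouse genome encodes miR-181b-5p at chr1:137966650-137966673 and at chr2:38853845-38853868, both on the plus strand. The level of the mature microRNA was not analysed here, so the labels were not checked against it.

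The array probes read the messages through stretches of 60 bases. Those of 5 genes are printed below, since the values of Apex1, Mbd4, Polb, Xrcc1 and Parp1 rest on them. Capitals in the Apex1 probe mark GAATGT, the DNA match to seed bases 2 to 7, and capitals in the Parp1 pair mark the 40 bases that both probes share.
Apex1: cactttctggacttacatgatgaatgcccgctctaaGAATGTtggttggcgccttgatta
Mbd4: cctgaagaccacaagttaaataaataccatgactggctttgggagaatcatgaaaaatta
Polb: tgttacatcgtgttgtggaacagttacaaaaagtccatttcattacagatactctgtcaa
Xrcc1: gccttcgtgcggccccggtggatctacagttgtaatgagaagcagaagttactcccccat
Parp1, brighter probe: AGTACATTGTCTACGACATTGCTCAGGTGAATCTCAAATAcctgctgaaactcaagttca
Parp1, dimmer probe: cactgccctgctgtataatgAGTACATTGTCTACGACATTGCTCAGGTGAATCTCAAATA
The match to the whole seed, TGAATGT, was in 0 of the 19 probes of the 10 genes, against 0.954% of the 41174 probes on the array, read on the message strand only. The shorter GAATGT, which TGAATGT contains, was at positions 37 to 42 of the Apex1 probe, counted from its 5′ end, and in no other probe of the 10 genes. It was in 2.56% of all probes. A match is a description of these letters and not a site of action, and the probes cover only a small part of each message.

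On array 1 the median gene had a log2 ratio of miR-181b over control of 0.0056, and on array 2 of -0.02, and across genes, which are not independent replicates, the ratios of both arrays correlated at 0.029. In 10 groups of 1759 genes ranked by intensity, the correlation lay between 0.19 and 0.28 from the third group to the ninth, where 8 of the 10 repair genes lie, and was -0.38 in the brightest. Of 17590 genes, 8470 had opposite signs on the 2 arrays. All 6 B cell markers used (Cd79a, Cd79b, Ms4a1, Cd22, Pax5 and Blnk) were measured, and their probes summed to an intensity of 1.8085e+05 in miR-181b RNA against 2.8269e+05 in control RNA on array 1, but 2.9415e+05 against 1.569e+05 on array 2. Their median log2 ratio was -0.43 on array 1 and 0.75 on array 2, a reversal between 2 readings of the same RNA pair. Of the 6, 3 were saturated, and Cd79a alone was higher on both arrays, at 0.16 and 1.56. T cell markers (7 of 7 measured) summed to 5912 and 5036 in miR-181b RNA, against 6307 and 5896 in control RNA, on arrays 1 and 2, though 2 of them (Cd3e and Cd3g) were higher on both arrays and 3 lower. Macrophage and monocyte markers (5 of 6) summed to 3913 and 3498 against 3799 and 3542. Of these, 1 (Cd14) was higher on both arrays and 2 were lower, Csf1r (-0.21 and -0.31) and Lyz2 (-0.42 and -0.56). Natural killer markers (3 of 4) summed to 834 and 743 against 741 and 595, and granulocyte markers (2 of 5) to 295 and 269 against 316 and 298. Of 4 erythroid markers only Hba-a1 was measured, at 487 and 471 against 366 and 363. The part of these other cells in the ratios below was not tested, and in bulk RNA fewer cells of a type and less RNA per cell cannot be told apart.

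None of the 10 repair genes differed by 1.5-fold between the RNAs on the mean of both arrays, though Tdg did on array 2 alone (-0.63). After loess, which centres the ratios at each intensity, the set as a whole was balanced. The median of the mean log2 ratios of the 10 genes was 0.05, with 0.04 on array 1 and -0.02 on array 2, against -0.0050 for all measured genes. Ung, Apex1 and Lig3 were higher with miR-181b on both arrays, 3 of 10 genes against 24.5% of all measured genes. Smug1 and Mbd4 were lower on both, 2 of 10 against 27.4%. Both shares are near the background, and the remaining 5 genes, Tdg, Apex2, Polb, Xrcc1 and Parp1, had opposite signs on the arrays. Where arrays that shared a sign were also required to average at least 1.5-fold, 0 of 10 genes passed in either direction, against 0.819% of all genes higher and 0.512% lower. With a mean log2 ratio of at least 0.32 in place of 1.5-fold, Apex1 alone passed as higher, where the background was 4.0%, and 0 genes passed as lower, where it was 3.21%.

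**Figure D1:**
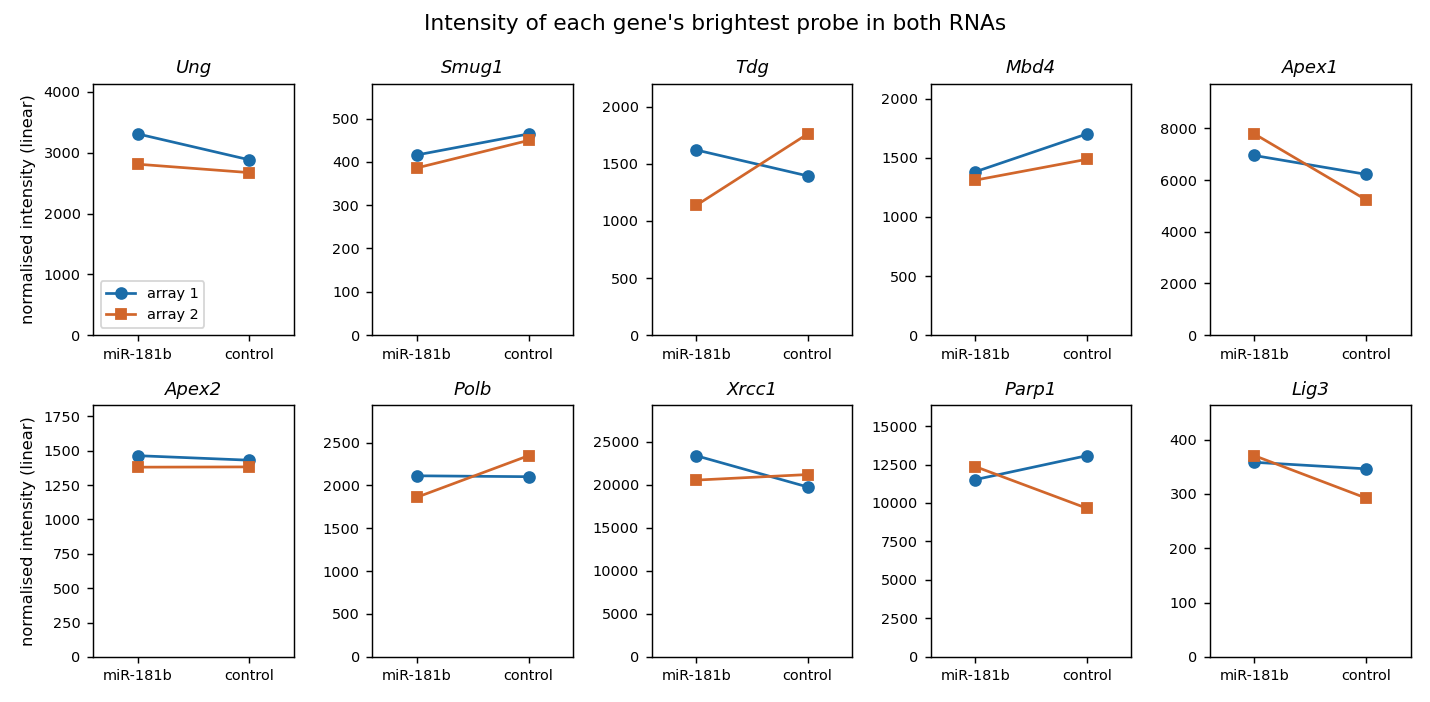
Normalised intensity (linear, each axis from 0) of the brightest measured probe of each gene in miR-181b RNA (left) and control RNA (right), with 1 line per array. The miR-181b point is the higher on both arrays for Ung, Apex1 and Lig3 and the lower on both for Smug1 and Mbd4, and for the other 5 genes the arrays differ in which RNA is higher.

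In what follows an intensity is a probe's brightness after background correction and loess. It is comparable between the RNAs for a given probe and array, but not between probes or between arrays. A log2 ratio is miR-181b over control, and the value after ± is the distance of either array from the mean of both. That distance is technical spread between 2 hybridisations and holds nothing of the variation between cultures. Its median over all measured genes was 0.091, and over the 10 repair genes 0.15. Where a gene has several measured probes, the brightest stands for it, and the others are given with it.

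Among the glycosylases, Ung was slightly higher with miR-181b. Its only probe had intensities of 3309 and 2811 in miR-181b RNA on arrays 1 and 2, against 2883 and 2673 in control RNA. The miR-181b value was the higher on each array, but by less on array 2. The log2 ratios of 0.20 and 0.07 averaged 0.14 ± 0.06, a 1.10-fold difference. Of all measured genes, 80.7% had a lower mean ratio, so Ung lay inside the bulk of the distribution.

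Smug1, a glycosylase that removes uracil and oxidised pyrimidines and can act on single-stranded DNA, was lower on the probe for its RefSeq message. That probe read 416 and 386 in miR-181b RNA, against 465 and 449.5 in control RNA, so miR-181b was the lower on each array. Its log2 ratios of -0.16 and -0.22 averaged -0.19 ± 0.03, and 10.8% of genes lay below it. The other measured Smug1 probes, which stand for cDNA clones placed at this gene by symbol, did not share that difference. Their mean log2 ratios were -0.02 and 0.05, each with opposite signs on the arrays. A further clone probe was not well above background on array 1.

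Tdg, the thymine DNA glycosylase, takes thymine or uracil from mismatches with guanine and also removes some oxidised forms of methylcytosine. Of the 10 genes it had the greatest distance between arrays. The probe for transcript variant 2 read 1621 and 1136 in miR-181b RNA, against 1394 and 1762 in control RNA, so miR-181b was the higher on array 1 and the lower on array 2. Its log2 ratios were 0.22 and -0.63, for a mean of -0.21 ± 0.43. The probe for variant 1 ran the other way, with 1024 and 1141 in miR-181b RNA, against 1140 and 808 in control RNA. Its log2 ratios of -0.15 and 0.50 averaged 0.17 ± 0.33. For both probes the spread between arrays was wider than the mean ratio, and no direction can be given for Tdg. Their means were 0.38 apart on the log2 scale, a wider gap than in 92.2% of the 5754 genes with several measured probes, where the median gap was 0.14. Whether the variants differ was not tested.

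Mbd4, a glycosylase that binds methylated CpG and acts on T and U opposite G, had the lowest mean ratio of the 10 genes. Its single probe read 1382 and 1311 in miR-181b RNA, against 1702 and 1487.5 in control RNA, so miR-181b was the lower on each array. The log2 ratios were -0.30 and -0.18, averaging -0.24 ± 0.06, or 1.18-fold lower. Only 6.64% of measured genes lay below it, yet its mean did not reach 0.32 on the log2 scale. The distance between its arrays was smaller than the median of 0.115 among genes of like intensity.

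The abasic-site endonuclease Apex1, which makes the incision after most glycosylases, showed the highest ratio of the set. Its probe, printed above, read 6954 and 7789 in miR-181b RNA, against 6225 and 5242 in control RNA. The miR-181b value was above the control value on each array, though the gap was much wider on array 2. The log2 ratios were 0.16 and 0.57 and averaged 0.37 ± 0.21, a 1.29-fold difference that rests mostly on array 2. Of all measured genes, 96.5% lay below it. The distance between arrays was above the median of 0.103 for genes of its intensity.

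Its relative Apex2, which has weaker endonuclease and stronger exonuclease activity, gave nearly the same values in both RNAs. The brighter probe read 1464 and 1380 in miR-181b RNA, against 1431 and 1382 in control RNA. The log2 ratios were 0.03 and -0.0020, with a mean of 0.02 ± 0.02. A second, dimmer probe for the same message averaged 0.03 ± 0.04, and the third, for a cDNA clone, was not well above background on either array.

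**Figure D2:**
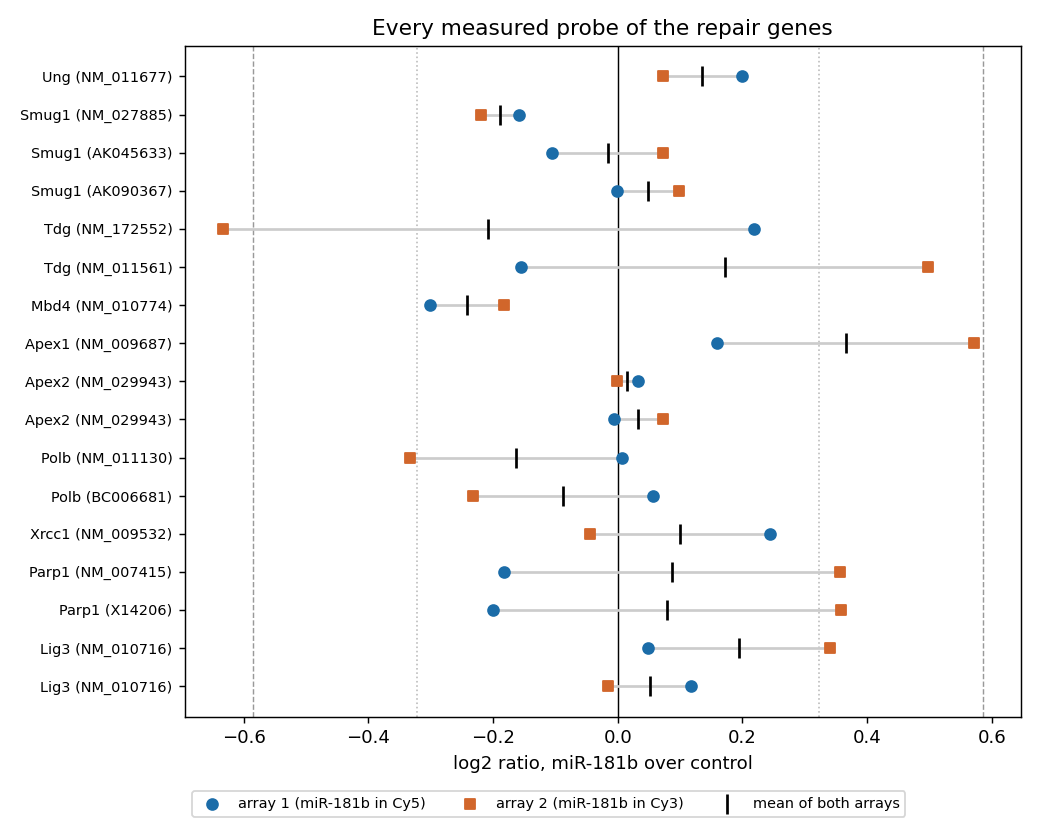
Log2 ratio of miR-181b over control for each of the 17 measured probes of the 10 genes, named by gene and message accession, with circles for array 1, squares for array 2 and bars for the mean. Dotted lines mark 0.32 in either direction and dashed lines 1.5-fold. The Tdg probes mirror each other, the overlapping Parp1 probes coincide, and the bars of all probes lie inside 1.5-fold.

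Polb, the polymerase that fills the single-base gap and trims the sugar remnant, was near 0 on array 1 and lower on array 2. Its brighter probe read 2112 and 1863 in miR-181b RNA, against 2102 and 2347 in control RNA. On the log2 scale the ratios were 0.0072 and -0.33, and the mean was -0.16 ± 0.17. The dimmer probe, placed by symbol, had log2 ratios of 0.06 and -0.23 and a mean of -0.09 ± 0.14. Both probes thus had the same pattern over the arrays, a lower value on array 2 alone, and their means were within the spread between arrays. A further probe, placed at Polb by RefSeq but not by name, did not share it, with log2 ratios of 0.05 and -0.0066.

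Xrcc1, which has no known enzymatic activity and holds Polb and Lig3 at the break, was the brightest probe of the set. It read 23384 and 20545 in miR-181b RNA, against 19749 and 21191 in control RNA, so miR-181b was the higher on array 1 and the lower on array 2. The log2 ratios of 0.24 and -0.04 averaged 0.10 ± 0.14.

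Parp1, which binds strand breaks and marks the site with ADP-ribose chains, had opposite signs on the arrays for both of its probes. The brighter read 11520 and 12367 in miR-181b RNA, against 13075 and 9660 in control RNA. Its log2 ratios were -0.18 and 0.36, averaging 0.09 ± 0.27. The dimmer, at 6715 and 7307 in miR-181b RNA, against 7718 and 5701 in control RNA, had log2 ratios of -0.20 and 0.36 and a mean of 0.08 ± 0.28. The means of these probes were 0.0082 apart, but 40 of their 60 bases are the same, so they are not separate readings of the message. Xrcc1 and Parp1 both fall among the 1759 brightest measured genes, of which 440 were saturated (neither of these). Among those genes the ratios of both arrays correlated at -0.38 and the median distance between arrays was 0.146.

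Lig3, the ligase that seals the nick with Xrcc1 and the only ligase of mitochondria, was dim and slightly higher with miR-181b. The brighter probe read 358 and 370 in miR-181b RNA, against 346 and 292 in control RNA, so miR-181b was the higher on each array. Its log2 ratios of 0.05 and 0.34 averaged 0.20 ± 0.15, and 87.6% of genes lay below it. The other probe for the same message, at 324 and 287 against 299 and 290, had log2 ratios of 0.12 and -0.02 and a mean of 0.05 ± 0.07. Only the brighter Lig3 probe was therefore higher on both arrays.

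**Figure D3:**
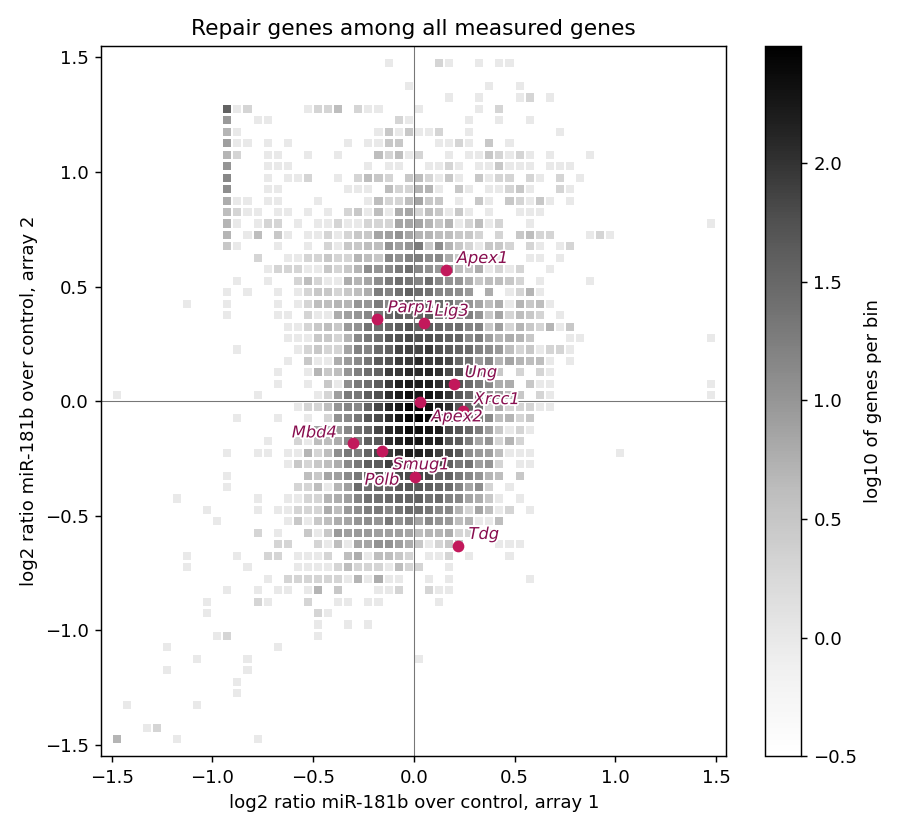
Log2 ratio of miR-181b over control on array 1 (horizontal) and array 2 (vertical) for 17590 measured genes, as the log10 of the number of genes in each square, with the 10 repair genes as points. Values beyond 1.5 on either side are drawn at the edge (13 genes). The points of Ung, Apex1 and Lig3 lie upper right, Smug1 and Mbd4 lower left, and all lie within the cloud of other genes.

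Counted by probe rather than by gene, 3 of the 17 measured probes were higher with miR-181b on both arrays and 2 were lower on both, against 6142 and 6770 of all 25826 measured probes. The median over the 17 probes was 0.05. None was saturated. For the 6 genes with several measured probes, the gap between probe means was 0.02 for Apex2, 0.0082 for Parp1, 0.08 for Polb, 0.14 for Lig3, 0.24 for Smug1 and 0.38 for Tdg. The Tdg and Smug1 gaps were larger than the mean ratio of either gene's brightest probe, and the means of their probes differed in sign. For Smug1 the positive mean was that of its dimmest measured probe. By the scanner's log ratio the measured Smug1 probes were all negative on the mean, at -0.21, -0.05 and -0.03.

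The exchange of dyes allows the dye difference of a gene to be set beside its difference between RNAs. The part that followed the dye (Cy5 over Cy3) has the same size as the distance given after ±. By arithmetic it exceeds the mean ratio whenever the arrays differ in sign, as they did for 5 genes. Each dye assignment had its own array, so dye and array cannot be told apart. On the log2 scale the dye part was 0.43 for Tdg, -0.27 for Parp1, 0.17 for Polb, 0.14 for Xrcc1 and 0.02 for Apex2. For all measured genes, 947 (5.38%) had a dye difference of at least 0.32 on the log2 scale with the same sign for both dye assignments, compared with 703 higher and 564 lower by that measure between RNAs.

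Other genes of base excision repair also lay on both sides of 0. Of 34 listed genes 33 were measured (all but Neil2, an oxidised-base glycosylase), and the median of their mean log2 ratios was 0.0043 (-0.03 on array 1, 0.0063 on array 2). On both arrays 7 of the 33 were higher and 11 lower with miR-181b, against 24.5% and 27.4% of all measured genes. The lists below hold 3 to 10 measured genes each, and their counts are read against the same shares. With a mean log2 ratio of at least 0.32, 2 of the 33 were higher and 1 was lower, against 4.0% and 3.21% of all measured genes. At 1.5-fold 0 were either, against 0.819% higher and 0.512% lower.

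Of the other DNA glycosylases 6 of 7 were measured, with a median of -0.08, and both arrays agreed on a lower value for 3 and a higher one for 0. Neil3, which removes oxidised bases from single-stranded DNA and is made mainly in dividing cells, had log2 ratios of -0.36 and -0.24 and a mean of -0.30 ± 0.06. Its other probes averaged -0.32 and -0.39, so that all 3 probes were lower on both arrays. The alkylbase glycosylase Mpg averaged -0.16 ± 0.13, and Nthl1, which removes oxidised pyrimidines, -0.15 ± 0.06.

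The 10 genes of end processing and ADP-ribose signalling were all measured, with a median of 0.01. Both arrays gave a higher value for 3 and a lower one for 3. Aplf, a histone-binding factor recruited by ADP-ribose chains, had the lowest ratio of any gene in these lists. Its log2 ratios were -0.28 and -0.77, averaging -0.52 ± 0.25, and 0.694% of all measured genes lay below it. Parp3, another ADP-ribosyltransferase that responds to breaks, averaged 0.39 ± 0.18 on its brighter probe, with 0.21 and 0.58 on the arrays, but its other probe averaged -0.04. Tdp2, which frees DNA ends from trapped topoisomerase, averaged -0.22 ± 0.15, and its other probe averaged -0.15.

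Long-patch repair, in which a polymerase displaces a stretch of strand that is then cut off, had all 8 genes measured, with a median of -0.03. On both arrays 2 were higher and 3 lower. Fen1, the nuclease that cuts the flap, had log2 ratios of 0.15 and 0.76, averaging 0.45 ± 0.30, and like Apex1 it rested mostly on array 2. The polymerase delta subunits did not move together: Pold1, the catalytic one, averaged -0.26 ± 0.06 (its other probe -0.15) and Pold2 averaged 0.24 ± 0.11. Pcna, the sliding clamp, was the only saturated gene of the lists.

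Uracil supply, the enzymes that set the ratio of dUTP to dTTP, had 6 of 6 genes measured and a median of 0.11. Both arrays put 2 of them higher and 1 lower. Tyms, which makes thymidylate from dUMP, averaged 0.15 ± 0.02, with 0.13 and -0.10 on its other probes. Dctd, which makes dUMP from dCMP, averaged 0.18 ± 0.11, with -0.06 on its other probe. Dut, which breaks down dUTP, averaged -0.14 ± 0.12, and its other probe averaged -0.20 with opposite signs on the arrays.

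The Tet enzymes, which oxidise methylcytosine to forms that Tdg removes, were all 3 measured, with a median of -0.0033. Tet2 was lower on both arrays, at -0.28 and -0.22, and averaged -0.25 ± 0.03, and its other probe averaged -0.19. Tet1 and Tet3 had opposite signs on the arrays.

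**Figure D4:**
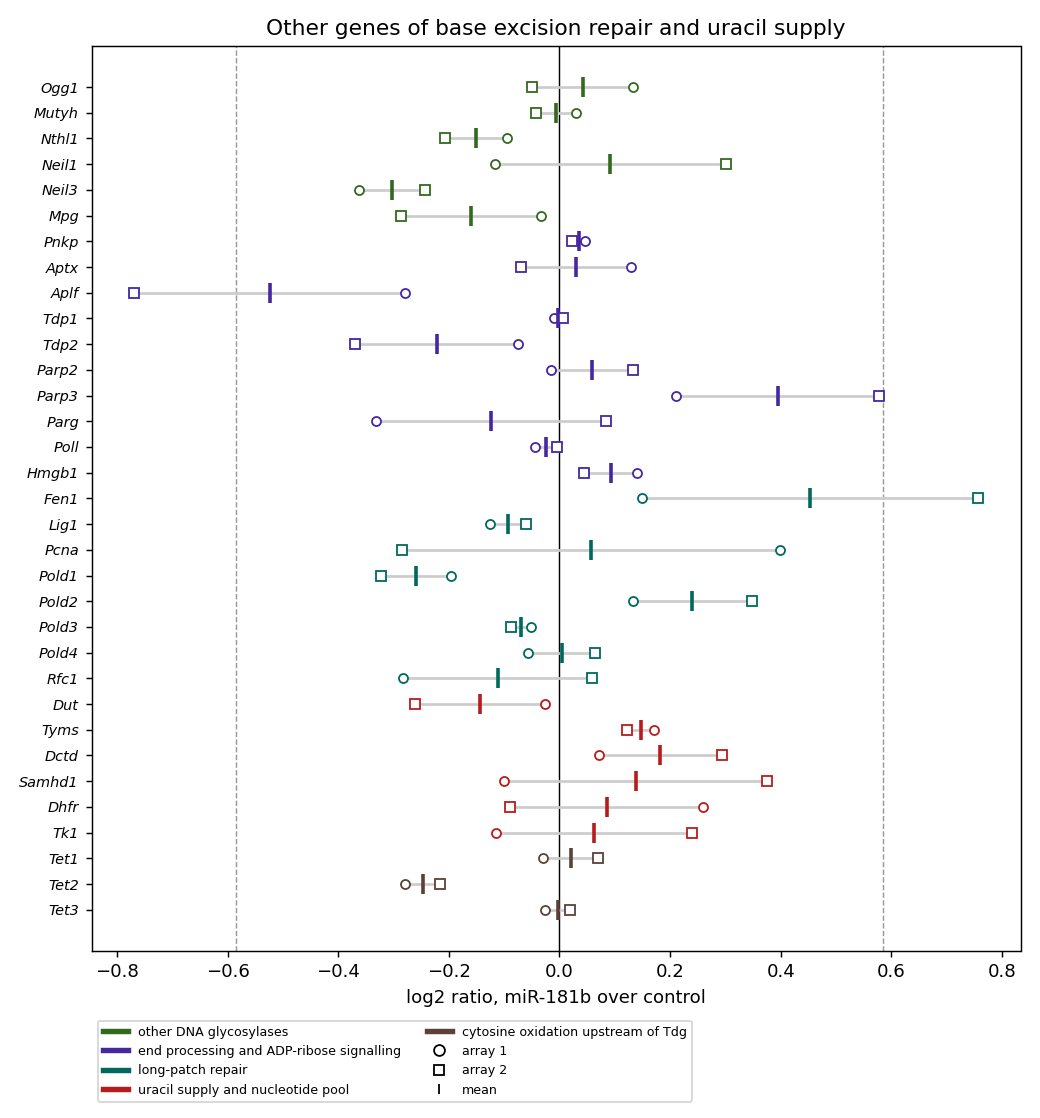
Log2 ratio of miR-181b over control of the 33 measured other pathway genes (brightest probe), coloured by list, with circles for array 1, squares for array 2, bars for the mean and dashed lines at 1.5-fold. The bars of Fen1 and Parp3 lie furthest right and that of Aplf furthest left, none past 1.5-fold.

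The loess step, which centres the ratios at each intensity, set the sign of the mean ratio of 5 of the 10 genes. Of those 5, only Ung and Apex1 had arrays that shared a sign with loess. When loess was replaced by subtraction of each array's median, the median of all measured genes became -0.20. The mean ratios of Ung, Apex1, Apex2, Xrcc1 and Parp1 then changed sign, with Apex1 at -0.02 and Ung at -0.21. The other genes kept their sign, from -0.41 for Smug1, -0.50 for Polb, -0.52 for Tdg and -0.55 for Mbd4 to 0.0022 for Lig3. When the median of genes of like intensity (groups of 1759 by rank) was then subtracted, all 10 genes kept the sign they had with loess, with Apex1 at 0.37, Lig3 at 0.17, Ung at 0.15, Smug1 at -0.18 and Mbd4 at -0.23, as did 32 of the 33 other pathway genes. Each direction above is therefore relative to genes of like intensity. That subtraction centres the ratios by intensity much as loess does, so it is not a separate check of the directions.

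**Figure D5:**
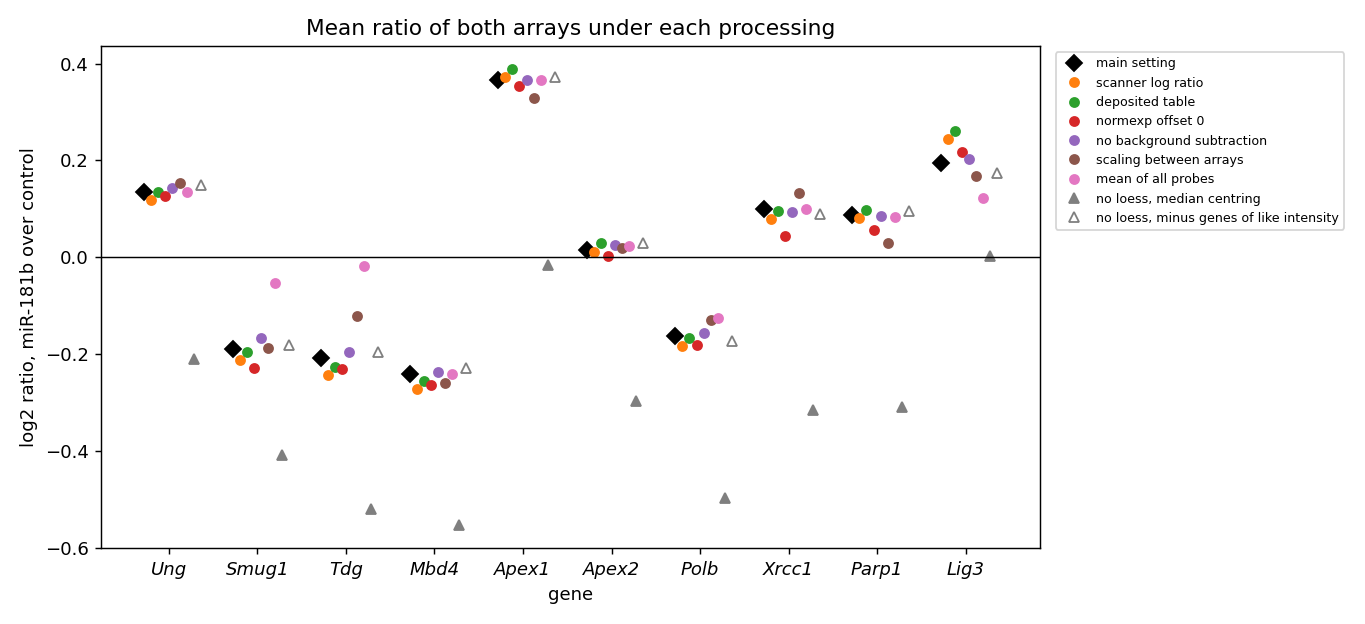
Mean log2 ratio of both arrays for each gene under the main processing (black diamonds) and its alternatives. Median centring without loess (filled triangles) lies below the rest for every gene, and subtracting genes of like intensity (open triangles) brings the values back beside the diamonds.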

How the data were processed

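The scanner files were written by Agilent Feature Extraction (version 9.1.3.1), per the file headers, and hold mean, local background and processed intensity in Cy3 and Cy5. Their log10 ratio is Cy5 over Cy3 of the processed signals, per the file headers. A second deposited table holds log2 ratios, and its values for all 40929 probes with 1 spot matched those of the processed signals within 0.0001 after constants of 0.0011 and 0.0327 were added. Its column medians were -0.0626 and -0.0704, and scale, direction and centring were settled by that match.

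With limma 3.58.1 in R 4.3.3, ratios were made from mean and background intensity (normexp, offset 50; loess within each array, control spots at weight 0) and tested on simulated data. The simulated arrays shared the same dye trend with intensity and had no dye differences of single genes, so such differences were not covered. Outlier spots (7 and 21) were left out, spots of a probe were averaged, and the brightest measured probe stood for a gene. Per channel, 64.7% to 67.7% of spots were well above background. Precision is limited by there being 1 RNA per vector, read on 2 arrays that are technical repeats. For the genes other than the 10, names came from a RefSeq table (GRCm38.p6), against which all 41174 probes were looked up, with matches by accession (22944), symbol (6664) or synonym (3108), and 8458 kept the file's name. No gene coordinates are given, since the array's build is not named in the sources used here.

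The members and lists were chosen with earlier results of these data known. All 10 genes were named with every probe, and of each other list up to 3 genes with the largest mean ratio among those whose arrays shared a sign. Neil2, Pcna, Tet1 and Tet3 were named outside that rule. One marker gene of the B cell list is not reported here.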

Additional observations from a re-analysis of the deposited data

How the results depend on the processing

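Without loess, after median centring, 0 of the 10 genes were higher on both arrays and 5 lower (9.11% and 55.2% of all measured genes), 0 passed a mean log2 ratio of 0.32 as higher and 3 as lower (0.591% and 29.8%), the median of the 10 became -0.31 and that of the other pathway genes -0.35, and Apex1 turned to -0.016. All measured genes then had a median of -0.20, and 10 of 10 genes kept their sign once the median of genes of like intensity was subtracted. With mean ratios over all probes of a gene, 1 of 10 genes moved by more than the distance between its arrays and none changed sign. The scanner's log ratio, the deposited table, normexp without offset, no background subtraction, scaling between arrays, no filter on dim probes and leaving out saturated genes changed the sign of 0 of 10 genes. Each array alone gave 4 to 7 genes higher (45.6% to 51.5% of all genes), 3 to 6 lower (48.5% to 54.4%), 0 to 1 past 1.5-fold (2.18% to 6.50%), 0 to 3 past 0.32 as higher (4.01% to 13.3%) and 0 to 2 as lower (4.64% to 10.2%). The medians were then -0.0234 to 0.0410 for the 10 genes and -0.0295 to 0.0063 for the other pathway genes. Without array 1, 3 genes passed 0.32 as higher, and without array 2, 0. Apex2 and Xrcc1 had the other sign on array 2, and Tdg, Polb and Parp1 on array 1. The subtraction of genes of like intensity was chosen after seeing the data, and it centres by intensity much as loess does. No paired analysis was possible because each vector had 1 RNA. Signal over background left 1 Smug1 and 1 Apex2 probe unmeasured.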

Other observations

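A probe outside the 10 genes by name, listed under the clone name A430088C08Rik, is placed at Polb by RefSeq through its synonym. It was well above background on both arrays, with log2 ratios of 0.05 and -0.0066 and a mean of 0.02, against -0.16 for the brightest Polb probe.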
